A study of Homo sapiens with 8 samples.

Results

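The nuclear-encoded genes of the mitochondrial respiratory chain were described in HCT116 cells, a human colorectal carcinoma line, kept with or without Fusobacterium nucleatum. Genes were chosen by symbol: those starting with NDUF, UQCR or ATP5, and those starting with COX followed by a digit from 4 to 8. The rule found 95 of the 19475 entries of the expression table and 3 further symbols, all of non-coding RNAs, that stood only in the m6A peak lists. The study set out to learn whether the bacterium alters N6-methyladenosine (m6A), an mRNA modification laid down mostly at GGAC and related motifs. Control cells received PBS and FUSO cells received Fusobacterium nucleatum, for 2 h by the study's methods. Both were the same unmodified cell line in culture, so neither stroma nor immune cells were part of the model. For each treatment 2 biological replicates gave an IP library, of fragmented poly(A) RNA enriched with an m6A antibody, and an input library of the same fragments before enrichment, 8 samples in all. Expression came from the 4 input libraries and m6A from 4 peak lists, one for each replicate.

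The respiratory chain carries electrons from NADH and succinate to oxygen through complexes I to IV of the mitochondrial inner membrane, pumping protons on the way, and complex V, the ATP synthase, uses the returning protons to make ATP. A few core subunits are encoded by mitochondrial DNA, and the others are encoded in the nucleus, translated in the cytosol and imported. NDUF genes encode subunits and assembly factors of complex I, UQCR genes subunits of complex III, COX genes subunits of complex IV and ATP5 genes subunits of complex V. NDUFA4 and NDUFA4L2, named for complex I, were counted with complex IV, where their products belong. By class the 95 genes were 7 core and 30 accessory subunits of complex I, 8 complex I assembly factors, 9 genes of complex III, 19 of complex IV, 19 of complex V and 3 other symbols: the read-through genes ATP5MF-PTCD1 and NDUFC2-KCTD14, and ATP5MGL. The mitochondrially encoded subunits were not analysed here.

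Depth was not given, since the expression values were FPKM (fragments scaled by transcript length and by the library's total). From genes at the lowest values, depth relative to the input of Control 1 came to 1.11 for Control 2, 1.24 for FUSO 1 and 0.910 for FUSO 2, an estimate that rested on 7 to 13 genes sharing the most frequent ratio. Correlations of log2(FPKM + 1) between libraries lay between 0.988 and 0.994. Of 6 epithelial markers, KRT8, KRT18, EPCAM and CDH1 had means of 12.8 to 2152 FPKM, whereas CDX1 was listed at 0 and VIL1 reached 0.00449. Of 10 markers of blood, endothelial, stromal and liver cells, 9 had means under 1 FPKM and COL1A1 had 4.77.

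The sequences of a few m6A regions are given before the counts. Of the regions with a peak in both Control lists and in neither FUSO list (called lost), those of ATP5F1D, the delta subunit of the central stalk of ATP synthase, and NDUFAF8, a complex I assembly factor, held the start codon. Their coding bases are printed first, on GRCh37 (hg19) and the plus strand, at chr19:1241850-1241983 and, over 2 exons, at chr17:79213164-79213436. The coding bases of the region that appeared only in the FUSO lists (called gained) in NDUFB4, an accessory subunit of complex I, follow, at chr3:120315207-120315278. Capitals mark GGAC.
ATP5F1D: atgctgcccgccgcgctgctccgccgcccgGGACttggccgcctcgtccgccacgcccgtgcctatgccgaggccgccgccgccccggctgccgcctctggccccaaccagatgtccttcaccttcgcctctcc
NDUFAF8: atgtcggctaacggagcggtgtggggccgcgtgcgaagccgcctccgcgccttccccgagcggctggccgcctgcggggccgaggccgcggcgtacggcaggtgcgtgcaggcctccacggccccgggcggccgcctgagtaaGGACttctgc
NDUFB4: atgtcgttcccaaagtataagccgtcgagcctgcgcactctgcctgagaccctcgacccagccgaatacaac
The GC content of these stretches was 76.1% in ATP5F1D, 76.5% in NDUFAF8 and 56.9% in NDUFB4, and the NDUFB4 stretch held no GGAC.

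The strongest regions present in all 4 lists were those of UQCRH, COX6A1, UQCR10, ATP5IF1 and NDUFS5. From each, 29 nt around the GGAC nearest the middle of the region are shown, all on the plus strand of GRCh37: chr1:46769438-46769466, chr12:120876305-120878265 (across an exon junction), chr22:30165726-30165754, chr1:28562735-28562763 and chr1:39494396-39494424. The capitals mark a motif match and not a mapped methylated base, since the lists gave no summits. Only the match nearest the middle is in capitals, and the UQCRH stretch holds another GGAC in lower case.
UQCRH: catgggactggaGGACgagcaaaagatgc
COX6A1: atctccgcatcaGGACcaagccgtttccc
UQCR10: tccaggccagaaGGACcaggtccacccag
ATP5IF1: tgtggggcgtgaGGACcatgcaagcccga
NDUFS5: catgcctttcttGGACatccagaaaaggt

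The first question was how abundantly HCT116 cells express the respiratory chain. Of the 95 genes, 86 had a mean of at least 1 FPKM and were tested, with means of 1.43 to 803 FPKM. Their median of 107 FPKM compares with 9.45 FPKM over all 11088 genes tested. The most abundant gene of each class was COX6A1 (complex IV, 803 FPKM), ATP5F1B, the catalytic beta subunit of complex V (645 FPKM), NDUFB9 (complex I accessory, 579 FPKM), UQCRH, the hinge protein of complex III (545 FPKM), the iron-sulfur subunit NDUFV2 (complex I core, 197 FPKM) and NDUFAF8 (assembly factor, 104 FPKM). Over the tested genes, class medians ran from 382 FPKM in complex IV and 217 in complex V through 109 in complex III, 98.5 in the accessory and 73.4 in the core subunits of complex I, down to 15.6 in the assembly factors. In complex IV 12 of 19 genes were tested and the 7 below 1 FPKM did not enter its median, while the other complexes kept all their genes. All 95 genes together took 3.23% and 3.11% of the summed FPKM in Control 1 and 2, and 3.11% and 3.07% in FUSO 1 and 2. FUSO 1 lay above Control 2, so the groups overlapped. In RNA of a whole culture, fewer cells with a transcript and less of it per cell cannot be told apart.

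**Figure D1:**
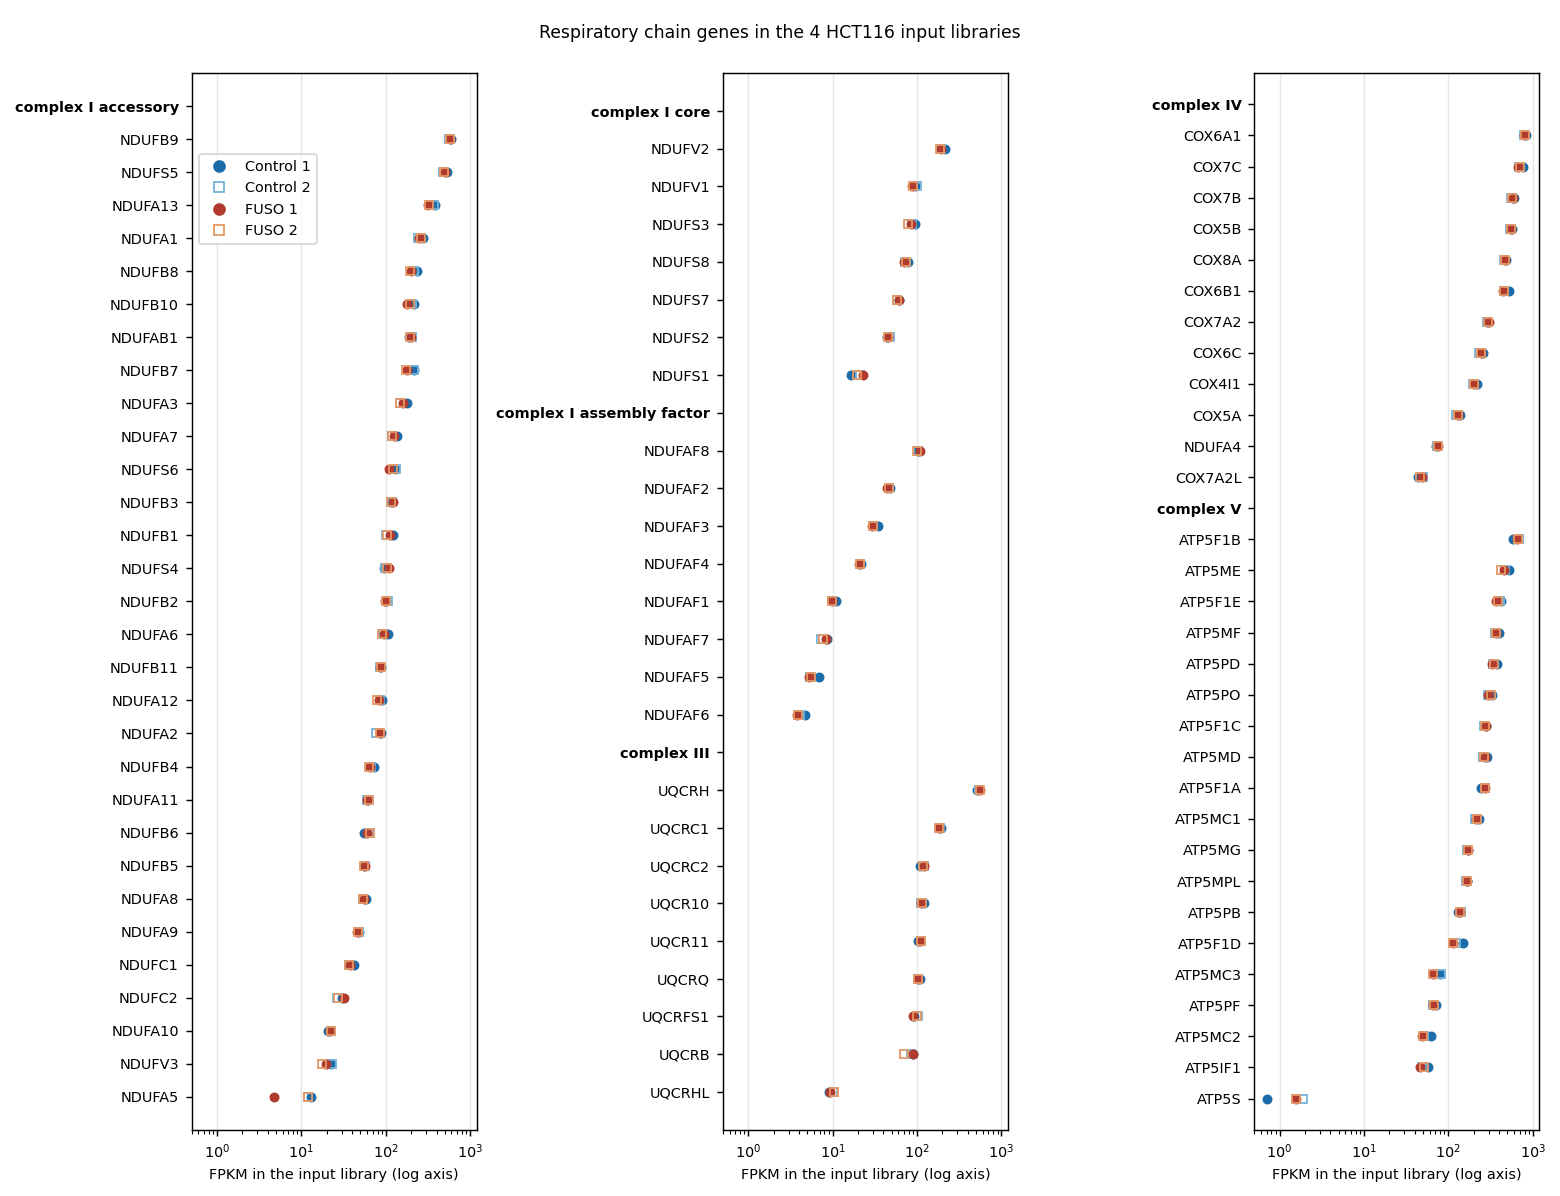
FPKM of the 85 tested respiratory chain genes other than ATP5MF-PTCD1 in each of the 4 input libraries (log axis), ordered by mean within each class; filled circles are replicate 1, open squares replicate 2, blue Control and red FUSO. The libraries lie almost on each other for most genes, and NDUFA5 has 1 low FUSO library.

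The 9 genes below 1 FPKM were mostly tissue-specific forms. COX4I2, COX6A2 and COX7B2 were listed at 0 in every library, COX8C, COX7A1 and COX6B2 stayed at or below 0.644 FPKM, and ATP5MGL at or below 0.0432. Just below the limit were NDUFA4L2, at 0.619, 0.513, 0.547 and 0.937 FPKM in Control 1, Control 2, FUSO 1 and FUSO 2, and NDUFC2-KCTD14, at 0.0207, 1.44, 0.850 and 0. Just above it were ATP5S (coupling factor B), at 0.700, 1.91, 1.57 and 1.55 FPKM, and ATP5MF-PTCD1, at 1.28, 2.83, 3.66 and 1.87. Values of the read-through genes depended on how fragments shared with ATP5MF, PTCD1, NDUFC2 and KCTD14 were assigned, and varied between replicates of the same group.

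The second comparison was FUSO against Control input. No respiratory chain gene passed an adjusted p of 0.05 in limma, fitted on log2(FPKM + 1) over all 11088 tested genes with Benjamini-Hochberg adjustment, where 0.667% of all genes were called higher and 0.135% lower. With an unadjusted p under 0.05 in limma, 8 of the 86 genes (9.30%) were lower in FUSO and 0 higher, beside 6.45% and 7.04% of all genes. No respiratory chain gene met an unadjusted p under 0.05 together with a change of over 2-fold, a pair of limits that 0.334% of all genes met upward and 0.0361% downward. Both FUSO libraries lay below both Control libraries in 20 of the 86 genes (23.3%, beside 21.1% of all genes) and above them in 4 (4.65%, beside 26.1% of all genes). Among the 1262 tested genes at or above 55.6 FPKM, the lower quartile of the respiratory chain genes, these shares were 31.8% below and 17.9% above, and 12.4% were lower at an unadjusted p under 0.05. An excess of lower over higher values was thus also present among abundant genes at large, a set that includes the respiratory chain genes at those levels.

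The shifts were small. The median log2 fold change of the 86 genes was -0.03, against 0.01 over all tested genes and -0.02 over those at or above 55.6 FPKM. In 58 of the 86 (67.4%) the estimate was within 0.1 of 0, as in 52.0% of all tested genes, and in 54 (62.8%) it was below 0, as in 46.0% of all tested genes and 58.6% of those at or above 55.6 FPKM. By class the median was -0.07 in the assembly factors, -0.05 in both the core and the accessory subunits of complex I, -0.04 in complex III, -0.02 in complex V and 0.01 in complex IV. Of the 8 genes with an unadjusted limma p under 0.05, 5 were accessory subunits of complex I and 3 were subunits of complex V. None of the 7 core subunits, the 8 assembly factors, the 9 complex III genes or the 12 tested complex IV genes was among them.

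**Figure D2:**
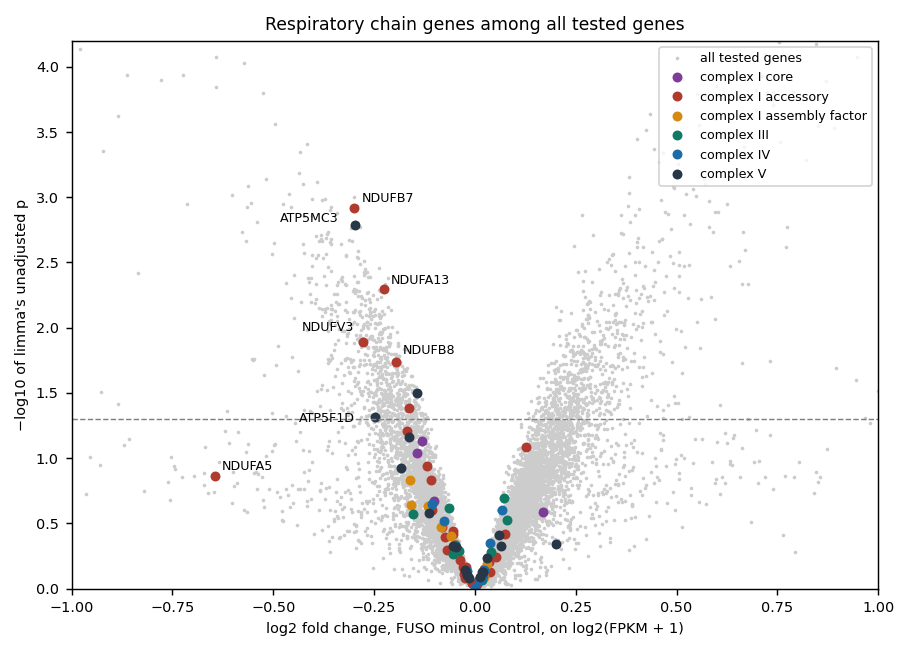
Log2 fold change (FUSO minus Control, log2(FPKM + 1) scale) against −log10 of limma's unadjusted p for all tested genes within the axes (grey) and for the respiratory chain genes other than ATP5MF-PTCD1 (coloured by class); the dashed line is an unadjusted p of 0.05. The 8 coloured points above the line are all on the left, and none of them passed the adjusted threshold.

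NDUFB7, an accessory subunit of the membrane arm of complex I, had the lowest p. Its levels were 215 and 219 FPKM in Control and 178 and 174 FPKM in FUSO, so that the groups did not overlap. Its log2 fold change in limma was -0.30 (SE 0.05; adjusted p = 0.101), and without Control replicate 1 or Control replicate 2 the adjusted p was 0.046 or 0.0457. Without FUSO replicate 1 or FUSO replicate 2 the limma adjusted p was 0.679 or 0.653. ATP5MC3 is 1 of the genes that encode the same c subunit of the rotor ring of ATP synthase. It gave 80.6 and 81.5 FPKM in Control against 65.9 and 65.8 in FUSO, and limma put the log2 fold change at -0.30 (SE 0.05; adjusted p = 0.122). Another gene of the c subunit, ATP5MC2, gave 62.2, 51.1, 49.0 and 50.02 FPKM, and its log2 fold change of -0.18 had a limma 95% interval from -0.43 to 0.07. The most abundant c subunit gene, ATP5MC1, gave 229, 207, 213 and 217 FPKM in the same order, so the groups overlapped. Its log2 fold change was -0.02 (limma 95% interval from -0.18 to 0.14). NDUFA13, an accessory subunit of complex I also known as GRIM-19, stood at 382 and 370.5 FPKM in Control and 316 and 328 in FUSO (log2 fold change -0.23, limma adjusted p = 0.202).

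NDUFV3, an accessory subunit of the NADH-oxidising module, gave 22.7 and 23.2 FPKM in Control and 19.8 and 17.7 in FUSO (log2 fold change -0.28, limma adjusted p = 0.261). NDUFB8 gave 233 and 217 against 200 and 193 FPKM, and NDUFB10 gave 215 and 205 against 179.9 and 195 FPKM. Both encode accessory subunits of the membrane arm, and their log2 fold changes were -0.20 and -0.16 (limma adjusted p = 0.288 and 0.355). In the central stalk of ATP synthase, the epsilon subunit ATP5F1E stood at 426 and 411 FPKM in Control and 372 and 385 in FUSO (log2 fold change -0.14, limma adjusted p = 0.334). The delta subunit ATP5F1D stood at 149 and 122 FPKM in Control and 113 and 114 in FUSO (log2 fold change -0.25, limma adjusted p = 0.365), and the size of its difference depended on Control 1. Without Control replicate 2 its log2 fold change was -0.39 (limma adjusted p = 0.0212), and without Control replicate 1 it was -0.11 (limma adjusted p = 0.402). Without FUSO replicate 1 or FUSO replicate 2 the limma adjusted p was 0.817 or 0.738. NDUFS6 and ATP5ME, next in order of p, had log2 fold changes of -0.17 and -0.16 with adjusted p of 0.39 and 0.4 in limma. In these 10 genes both FUSO libraries were below both Control libraries, and by ratio the groups came closest in ATP5ME, at 467 FPKM in Control 2 and 456 in FUSO 1.

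GC content was compared with these values. The transcripts of the 8 genes with an unadjusted limma p under 0.05 had a median GC content of 56.8% (38.4% to 69.5%), against 46.7% in the other respiratory chain genes with a transcript sequence. Across genes, which are not independent replicates and share the same 4 libraries, the rank correlation of GC content with the log2 fold change was -0.19 in 85 respiratory chain genes and -0.18 in 10989 tested genes. The Pearson correlation was -0.07 and -0.14 in the same order, so the relation was weak. After centring within GC bins, the log2 fold change was -0.24 in NDUFB7, -0.18 in NDUFA13, -0.33 in ATP5MC3 and -0.19 in ATP5F1D, the last with an unadjusted limma p of 0.0722. In that fit 7 genes had lower values and 0 higher ones at an unadjusted limma p under 0.05.

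The extremes of each class are given as values, since none passed the adjusted threshold. NDUFA5, an accessory subunit of complex I, had the lowest log2 fold change of all, -0.64, which came from 1 library: its levels were 13.2 and 11.9 FPKM in Control, 4.70 in FUSO 1 and 12.1 in FUSO 2. Among the core subunits NDUFS1 was highest, with 16.7 and 21.2 FPKM in Control and 23.1 and 19.6 in FUSO, and NDUFS3 lowest, with 93.5 and 86.8 against 85.0 and 78.1. NDUFS4, an accessory subunit needed for complex I to assemble fully, was above Control in both FUSO libraries (95.4 and 98.7 against 110 and 102 FPKM, log2 fold change 0.13, limma 95% interval from -0.02 to 0.28). The assembly factors ranged from NDUFAF6, at 4.73, 4.09, 3.73 and 3.92 FPKM, to NDUFAF8, at 101, 104, 109 and 100.4.

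In complex III the highest log2 fold change was that of UQCRC2 (0.08), a core protein, and the lowest that of UQCRB (-0.15), whose 4 libraries gave 90.3, 85.2, 89.6 and 69.2 FPKM. UQCRH stood at 521 and 543 FPKM in Control and 552 and 565 in FUSO, above Control in both libraries by a log2 fold change of 0.07 (limma 95% interval from -0.05 to 0.19). Complex IV held closest to 0. Its tested genes lay between COX6B1 (-0.11) and NDUFA4 (0.07), and 11 of 12 were within 0.1 of 0. COX6A1 gave 836, 781, 791 and 804 FPKM, with a limma 95% interval of its log2 fold change from -0.15 to 0.11. In complex V the highest estimate was that of ATP5S (0.20), which was under 2 FPKM in every library, and ATP5F1B gave 579, 684, 656 and 660 FPKM.

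Other genes of the pathway were read from lists of complex II, cytochrome c, assembly factors outside the symbol rule and regulators of mitochondrial biogenesis. Of their 66 genes, 65 were in the expression table and 64 were tested, and none was called at an adjusted p under 0.05. At an unadjusted limma p under 0.05, 8 were lower and 1 was higher in FUSO, beside 6.45% lower and 7.04% higher over all tested genes. The lowest p was that of UQCC3, an assembly factor of complex III, at 21.2 and 19.7 FPKM in Control and 15.3 and 15.7 in FUSO (log2 fold change -0.38). COA3, which acts early in complex IV assembly, stood at 37.1 and 37.4 against 28.8 and 31.8 FPKM, POLRMT, the mitochondrial RNA polymerase, at 35.6 and 35.1 against 27.6 and 29.9, and SDHAF1, an assembly factor of complex II, at 14.4 and 14.6 against 9.44 and 12.5. TIMMDC1, an assembly factor of complex I, was the gene with higher values, at 30.6 and 35.4 FPKM in Control and 39.8 and 37.9 in FUSO. In the cytochrome c list the lowest p was that of CYC1 (log2 fold change -0.10). CYC1 encodes cytochrome c1, a subunit of complex III that the symbol rule does not match. Among the ATP synthase assembly factors the lowest p was that of FMC1, which was at 11.7 FPKM in FUSO 1 and between 5.73 and 6.24 in the other libraries.

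Many nuclear respiratory genes share promoter motifs, of which the palindrome bound by NRF1 is the best known. RefSeq promoters (GRCh38.p14, 250 bases before to 50 after the start) were found for 71 of the 86 tested genes. The NRF1 core CGCATGCG was in 10 of them (14.1%), against 2.19% of 27305 promoters and 4.15% of the 8801 promoters of tested genes. The letters ATGGCGGC, of the YY1 type, were in 11 (15.5%), against 3.21% and 6.85%. The ETS-type letters CCGGAAG were in 19 (26.8%), against 10.7% and 20.9%, and the letters TATAAA in 6 (8.45%), against 11.95% and 4.93%. Both strands were searched, and none of these motifs contains another. At least 1 of the NRF1, YY1 and ETS letters stood in 33 promoters, and 38 held none in this window. The NRF1 matches of the most abundant genes that hold one are shown in capitals, at chr12:120437883-120437912 (plus strand), chr4:674335-674364 (minus strand), chr10:7788145-7788174 (plus strand) and chr5:1801351-1801380 (plus strand).
COX6A1 promoter: cggagggcacaCGCATGCGcacgaaggaaa
ATP5ME promoter: gccgctgacggCGCATGCGtgcgcccagct
ATP5F1C promoter: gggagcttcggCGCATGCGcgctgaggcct
NDUFS6 promoter: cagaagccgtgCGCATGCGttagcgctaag
These matches are descriptions of letters, which began 219, 77, 21 and 45 bases before the start.

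The next question was how many respiratory chain genes carried an m6A peak. A peak named for the gene was present for 35 and 37 of the 86 tested genes in Control 1 and 2, and for 40 and 41 in FUSO 1 and 2. These are 40.7% and 43.0% in Control and 46.5% and 47.7% in FUSO, against 74.9%, 77.2%, 77.6% and 75.2% of all tested genes in the same order. Both FUSO lists were above both Control lists, by 5.23 percentage points on average (41.9% ± 1.64 in Control and 47.1% ± 0.822 in FUSO, SD, n = 2), while over all tested genes the difference was 0.334 points. An exact permutation test over the 4 lists gave p = 0.333, two-sided, the smallest that 2 against 2 lists can give, so this design could not pass 0.05.

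The genes behind the difference can be named. NDUFAF4 and NDUFAF5, assembly factors of complex I, and NDUFA5 had a peak in both FUSO lists and in Control 2 only. ATP5ME, subunit e of ATP synthase, lacked a peak in Control 2. NDUFB4 and NDUFAF6 had a peak in the FUSO lists alone, NDUFAF8 in the Control lists alone, and COX6C, ATP5MG, NDUFB3 and UQCRC2 in 1 FUSO list each. NDUFS7 had a peak in Control 2 alone, and ATP5MC3 in Control 1 and FUSO 1. In all, 32 genes had a peak in every list, 13 in 1 to 3 lists and 41 in none. When peaks were given to genes by position on annotated exons, NDUFS3 gained a peak in all lists and NDUFS1 in FUSO 2.

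By class, a peak in any list was found in 8 of 8 assembly factors, 7 of 9 complex III genes, 16 of 30 accessory and 2 of 7 core subunits of complex I, 8 of 19 genes of complex V and 3 of 12 of complex IV. The most abundant genes were largely without one. COX7C (701 FPKM), ATP5F1B (645 FPKM), NDUFB9 (579 FPKM), COX7B (575 FPKM) and COX5B (552 FPKM) had no peak in any list. Of the 16 respiratory chain genes at 300 FPKM or more, 5 carried a peak somewhere, against 57.9% of 195 other genes at such levels, and below 20 FPKM it was 7 of 8 genes, against 84.9% of 7833 others. Genes with no peak had a median of 186 FPKM and those with a peak in every list 89.8 FPKM, with median transcript lengths of 759.5 and 687 nt.

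The transcripts are short, with a median canonical length of 758 nt against 3213 nt over all tested genes with one. Within length bands the picture was mixed. Below 600 nt, a peak was found in at least 1 list for 13 of 23 respiratory chain genes (56.5%) and 51.7% of 143 other tested genes, and from 600 to under 1000 nt for 14 of 28 and 64.6% of 506. From 1000 to under 2000 nt the shares were 53.8% of 13 genes and 75.2% of 2116, and at 2000 nt or more 52.4% of 21 genes and 88.5% of 8139. The motif was present in most transcripts with and without peaks: the median number of GGAC was 4 in genes with no peak and 4.5 in genes with a peak in every list, and 3 of the former held none, COX7C, COX8A and ATP5PO.

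**Figure D3:**
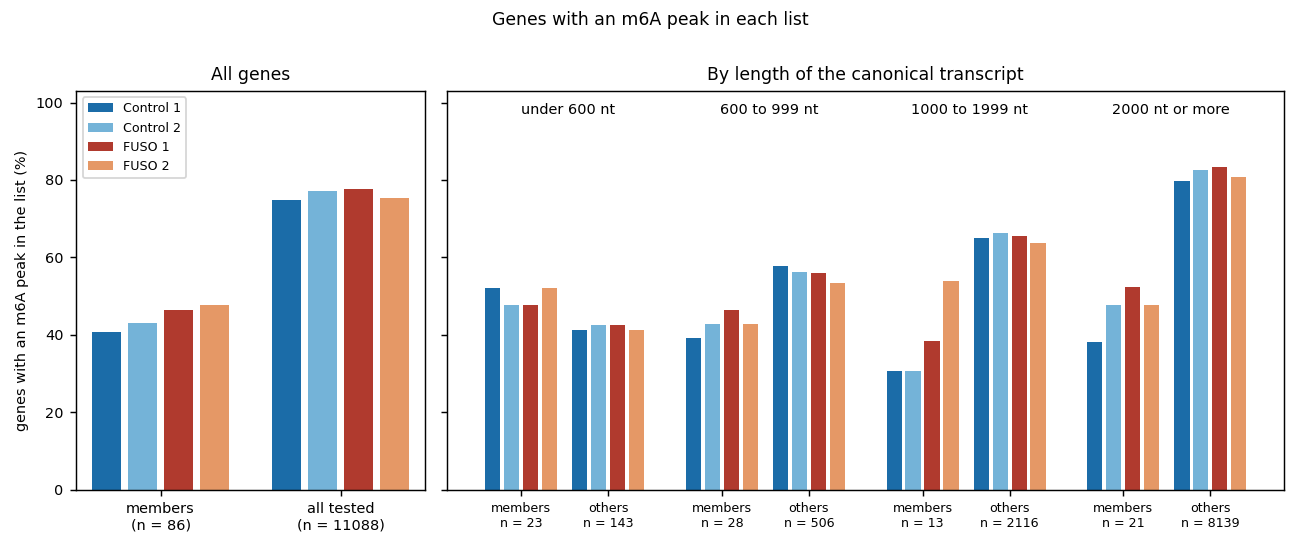
Share of genes with an m6A peak in each of the 4 lists, for respiratory chain genes and all tested genes (left) and by length of the canonical transcript for respiratory chain genes and other tested genes (right); bars are single lists and n is the number of genes. The respiratory chain genes lie below the others in every band except under 600 nt.

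Peaks of the 4 lists were joined to 65 union regions of the respiratory chain, of 22001 in the series. Of these, 37 (56.9%) were in all 4 lists, 6 in 3, 7 in 2 and 15 in 1, and 51.5% of all regions were in all 4. Their median length was 241 nt and their median GC content 52.7%, beside 325 nt and 51.5% in the series, and 50 of 65 (76.9%) held GGAC, beside 72.8%. Non-coding RNAs with symbols ending in AS1 account for 5 of the 65 regions (3 of NDUFA6-AS1, 1 each of NDUFB2-AS1 and NDUFV2-AS1), none of them in more than 1 list. The regions named for ATP5MF-PTCD1 alone and NDUFC2-KCTD14 lay largely on PTCD1 and KCTD14 sequence, and those of UQCRH and its single-exon copy UQCRHL may share reads.

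Many regions covered the beginning of the coding sequence. On the canonical coding transcript, 24 of 60 regions held the start codon and 18 the stop codon, against 11.4% and 29.6% of 20429 other regions. Among transcripts under 1000 nt the start codon was held by 20 of 32 regions (62.5%) of respiratory chain genes and 193 of 525 regions (36.8%) of others, and the stop codon by 8 and 219 of them. The joined regions of COX6A1, UQCR10 and NDUFV3 each held both the start and the stop codon of a coding transcript. NDUFAF1 had its region within the coding sequence, UQCRFS1, the Rieske iron-sulfur protein, had its region at the stop codon, and NDUFA10 had 4 regions, the most of any gene, all but 1 in the canonical 3′ UTR.

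Lost regions were 2 of 65, beside 2.64% of all regions, and gained regions 3 of 65, beside 2.38%. The lost region of ATP5F1D (chr19:1241749-1241983, 235 nt) had p-values, as the score of the lists was read, of 1.6e-36 and 4e-20 in Control 1 and 2. ATP5F1D kept a second region, in its 3′ UTR, in all lists. The lost region of NDUFAF8 (chr17:79213111-79213436, 206 nt over exons) had 2.5e-31 and 6.3e-16. Both were GC-rich, at 77.4% and 73.8% over their whole length, and the 581 lost regions of the series had a median of 61.7%. Input levels of NDUFAF8 overlapped between the groups, and those of ATP5F1D were lower in both FUSO libraries.

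The gained regions had weaker support. NDUFB4 (chr3:120315128-120315278, start codon) had p-values of 9.8e-08 and 4.4e-06 in FUSO 1 and 2, and UQCRB, in its coding sequence, 1.1e-06 and 1.5e-05. NDUFAF6 had 0.0018 and 0.00095, near the highest p of the lists (0.012), and lay outside its coding transcripts. UQCRB carried a second region, at its stop codon, in every list. Leaving out 1 list changed these counts: 7 regions were lost without Control replicate 1, and 5, 7, 8 and 9 were gained without Control replicate 1, Control replicate 2, FUSO replicate 1 and FUSO replicate 2.

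Regions in all lists were also ordered by their p-values, smaller p meaning stronger enrichment over input or deeper coverage, which the lists do not separate. Both FUSO p-values were above both Control p-values (weaker in FUSO) in 11 of 37 regions (29.7%, beside 18.9% of 11341 regions of the series), and below them (stronger) in 7 (18.9%, beside 15.7%). The weaker regions included those named for ATP5MF-PTCD1 alone and the NDUFC2-KCTD14 region in all lists. These lay largely on PTCD1 and KCTD14 sequence, so the count of 11 is not of respiratory chain sequence only. ATP5IF1, the inhibitor that stops ATP synthase from running in reverse, had 1e-212 and 1e-205 in Control and 1e-125 and 1.6e-79 in FUSO. NDUFB10 had 7.9e-52 and 7.9e-42 against 1.3e-15 and 6.3e-19, NDUFS6 2.5e-29 and 4e-29 against 4e-19 and 1.5e-06, and NDUFB8 4e-80 and 1e-64 against 1.6e-43 and 1.6e-53. Input levels of NDUFB10, NDUFS6 and NDUFB8 were also lower in both FUSO libraries, while those of ATP5IF1 overlapped between the groups. The part of input levels in these p-values was not tested.

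In the other direction, UQCRH had 1e-219 and 1e-194 in Control and was listed at 0 in both FUSO lists. NDUFA1, a small membrane-arm subunit of complex I, had 2.5e-12 and 1.3e-15 in Control and 4e-44 and 5e-19 in FUSO, and UQCRB, at its stop codon, 2.5e-46 and 7.9e-38 against 6.3e-76 and 1e-55. COX7A2L, known for joining complexes III and IV into supercomplexes, had 0.0004 and 0.0045 against 2.2e-08 and 3e-07. Input levels of UQCRH were also higher in both FUSO libraries, while those of NDUFA1, UQCRB and COX7A2L overlapped between the groups. The part of input levels was not tested here either. The strongest regions of COX6A1, UQCR10 and NDUFS5 overlapped between the groups, at 1e-172 and 1e-224 against 1e-262 and 1e-176 in COX6A1.

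GC content differed along this order. The 11 weaker regions had a median GC content of 60.7% (46.1% to 71.2%) and the 7 stronger ones 47.3% (32.6% to 57.1%), with 51.9% in the 19 that overlapped. Over the series the medians were 57.0%, 47.0% and 49.4% in the same order. The part of GC content in these differences was not tested, and the depth of the IP libraries was not given.

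**Figure D4:**
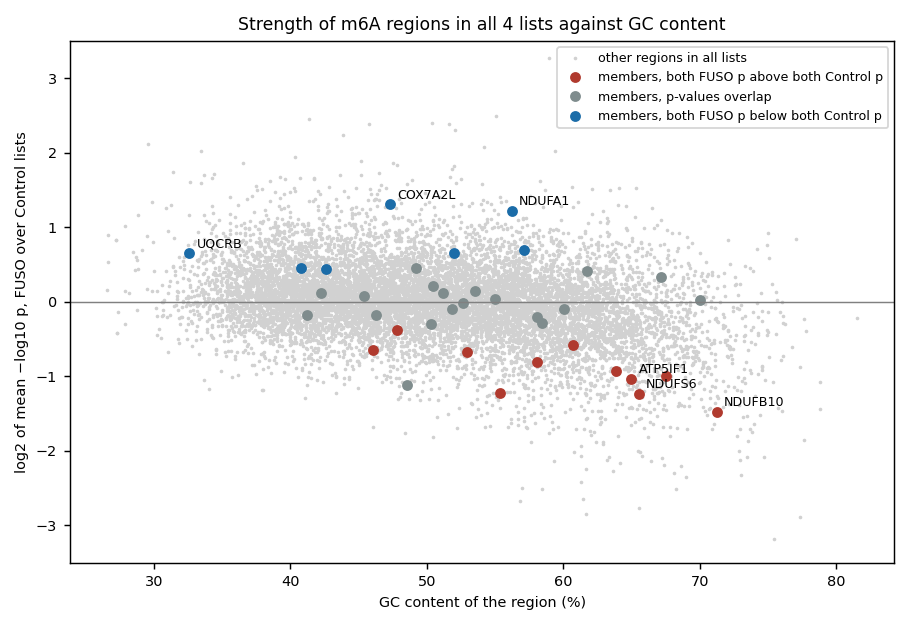
GC content of each region in all 4 lists against the log2 ratio of the mean −log10 p of the FUSO lists to that of the Control lists; grey points are other regions and coloured points respiratory chain regions, with a p listed at 0 drawn beyond every other. Respiratory chain regions with weaker p in FUSO lie mostly at high GC content, with NDUFB10 lowest.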

How the data were processed

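RNA of HCT116 cells was processed by the authors. Per the labels, reads were trimmed with Trim Galore 0.3.3 and aligned with HISAT2 2.1.0 to hg19. For the 4 input libraries the authors deposited FPKM, made with StringTie. The deposited peak lists, 1 per replicate with 17039 to 18365 peaks, gave exon blocks, a gene name and a score between 0 and 0.012, which was read as a p-value. The study's methods name MACS2, while the layout resembles that of exomePeak, and which program made the lists is not settled by the sources used here. FPKM adjust for length and total only, and a list's p-values grow smaller with depth as well as with enrichment.

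Genes whose mean reached 1 FPKM were tested with limma 3.58.1 (R 4.3.3; eBayes with trend) on log2(FPKM + 1), which understates changes of low genes. No covariate was used. Peaks on the same strand that shared at least 1 base were joined to union regions. GRCh37 with GENCODE v44 lifted to it gave positions, GC content and sequence, and 63 of 65 regions lay mainly on exons of the named gene. All 95 symbols matched, but NDUFB6 had no canonical transcript and was left out of comparisons by length, GC content or motif count. Promoters came from RefSeq. Python 3.11.15, SciPy 1.17.1 and pysam 0.24.0 were used.

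The genes, lists and tests were chosen with earlier results of these data known. Genes were named by rule: the 10 lowest p, the extremes and the highest level of each class, those next to the 1 FPKM limit, all lost or gained regions, the 5 strongest regions, those with most regions and the 5 most abundant genes without a peak. In the pathway lists the lowest p of each list was named. The regions given as weaker or stronger in FUSO, ATP5MC1, ATP5MC2, NDUFAF1 and UQCRFS1 were chosen after their values were seen. The alternatives were another pseudocount (0.1), no filter or a mean of at least 5 FPKM, other scalings, no variance trend, GC centring in 20 bins, a replicate block, peaks with p of at most 1e-05, peaks by position, a 50% overlap, and leaving out each library. Replicates were biological by the study's methods.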

Additional observations from a re-analysis of the deposited data

How the results depend on the processing

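No respiratory chain gene passed the adjusted limma threshold under any alternative that kept all 4 libraries. Leaving out 1 input library gave 0 to 2 such genes, NDUFB7 without Control replicate 1, and NDUFB7 and ATP5F1D without Control replicate 2. At an unadjusted p under 0.05, the 8 genes became 5 with no variance trend and 4 to 31 when 1 library was left out, the highest without Control replicate 2 (26 lower, 5 higher). The median log2 fold change was -0.03 and ranged from -0.084, without Control replicate 2, to -0.0016, without Control replicate 1. Fits that leave 1 library in a group assume that it varies like the other group. Same-numbered libraries shared no common deviation (correlation 0.0243), and with the replicate block 0 genes passed the adjusted and 8 the unadjusted threshold. Signs of some estimates turned. Quantile normalization gave 0.024 for NDUFB9 and 0.00059 for COX6A1, both near 0 in the main fit. Estimates further from 0 turned when 1 library was left out, among them ATP5MF-PTCD1, ATP5S and UQCRB (0.31, 0.20 and -0.15 in the main fit). Leaving out each library in turn, the log2 fold change ranged from -0.056 to 0.014 in NDUFB9, -0.068 to 0.029 in COX6A1, -0.21 to 7.6e-05 in COX6B1, -0.055 to 0.18 in ATP5F1B, -0.19 to 0.59 in ATP5S, -0.068 to 0.68 in ATP5MF-PTCD1, -0.0305 to 0.091 in NDUFAF8 and -0.34 to 0.031 in UQCRB. Those of ATP5F1B, ATP5S, COX6B1, NDUFB9 and COX6A1 turned without Control replicate 1, that of NDUFAF8 without FUSO replicate 1, that of UQCRB without FUSO replicate 2, and that of ATP5MF-PTCD1 without Control replicate 1 or FUSO replicate 1. The cause of these turns was not tested. The difference in the share of genes with a peak stayed positive under all 8 alternatives, between 4.07 and 6.4 percentage points. Lost regions were 3 and gained regions 4 with p of at most 1e-05, and without 1 list 2 to 7 were lost and 5 to 9 gained, since a single list then decided a group. Depth of the IP libraries is unknown, which limits any comparison of peak strength.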
